A study of Mus musculus with 12 samples.

Results

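The oligodendrocyte precursor genes described here are Pdgfra, Cspg4, Vcan, Ptprz1, C1ql1 and Lhfpl3. They were chosen by symbol, and are 6 of the 21937 genes with a normalized read count in purified mouse brain myelin. All 6 passed the filter on low values, a mean normalized read count of 10 or more, which 14634 genes passed. The RNA came from a light membrane fraction of the brain in which myelin is enriched, taken from male c57Bl6/N mice labelled WT (wild type). The 12 libraries fall into 4 ages of 3 libraries: postnatal days 18 (P18) and 75 (P75), and 6 and 24 months. The paper names individual brains for the 6 months libraries. Whether brains were pooled at the other ages is not given in the sources used here. The labels name no transgene and no treatment, and the groups differ by age. The study asked how the RNA pool of myelin changes from its formation to old age.

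Oligodendrocyte precursors are the dividing glial cells from which myelin-forming oligodendrocytes arise, and they persist in the adult brain. They carry a receptor for platelet-derived growth factor, which drives their division and survival, and a coat of chondroitin sulfate proteoglycans. As they differentiate they pass through a short-lived newly formed stage, switch these genes off and turn on the genes of myelin. In RNA of this fraction a lower count can come from fewer cells of a type, from less RNA per cell or from less of that RNA being carried into the fraction. These cannot be told apart, so the counts do not measure the number of precursors in the brain. Several of the 6 genes are also known from other cells. Cspg4 is expressed by pericytes of the vessel wall, Pdgfra and Vcan by fibroblasts and Ptprz1 by astrocytes.

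The libraries held 20299052 to 27214385 reads on genes. The lowest member count was 125 reads (Cspg4) and the highest was 5406 (Ptprz1). Reads of Mbp, the gene of myelin basic protein, made up 4.76% to 20.8% of a library. The P18 libraries differed most in this, with 15.1%, 20.8% and 9.47% in replicates 1, 2 and 3. P18 replicate 3, the lowest in Mbp, had the highest P18 counts of Pdgfra, Cspg4, Vcan, Lhfpl3 and C1ql1 and the lowest of Ptprz1. The margin was small for Lhfpl3 (1164 against 1143 and 1070) and C1ql1 (274 against 272 and 271). Changes from P18 to P75 and to 24 months are also given without this library where a call, direction or value moved clearly.

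In NCBIM37 (mm9), Pdgfra lies on the plus strand at chr5:75548316-75594229 (24 merged exons), Cspg4 on the plus strand at chr9:56712911-56747677 (10 exons) and Ptprz1 on the plus strand at chr6:22825502-23002916 (30 exons). None of these overlaps another annotated gene. Vcan, at chr13:89794915-89882117 on the minus strand (16 exons), is overlapped by the antisense Gm4117 and the pseudogene Gm16318. C1ql1, at chr11:102800578-102808002 on the minus strand (2 exons), is overlapped by the antisense Gm17536. Lhfpl3, at chr5:22252011-22618785 on the plus strand (4 exons, coding bases only), is overlapped by 1700030G06Rik on its own strand and by Gm11160 and Gm6564 on the other. Whether the counting used strand is not given in the sources used here, so reads of these overlapping pairs may not be separable.

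The promoters of Ptprz1 and Lhfpl3, the pair of genes that rose across the lifespan, are shown beside that of Pdgfra, the defining receptor of the precursors. The sequences are from RefSeq on GRCm38.p6, a different build from that of the counts, and hold the 250 bases before the start of the gene. The table held 5 of the 6 genes, and C1ql1 was not among them. The windows are chr6:22875252-22875501, chr5:22745804-22746053 and chr5:75152001-75152250, all on the plus strand. Capitals mark an E-box (CANNTG, which reads the same on both strands).
Ptprz1: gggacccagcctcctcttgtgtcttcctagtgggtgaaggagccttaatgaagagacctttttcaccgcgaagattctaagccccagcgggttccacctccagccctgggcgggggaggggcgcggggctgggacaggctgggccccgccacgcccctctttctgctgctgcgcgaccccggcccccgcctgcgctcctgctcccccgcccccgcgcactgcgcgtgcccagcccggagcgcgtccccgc
Lhfpl3: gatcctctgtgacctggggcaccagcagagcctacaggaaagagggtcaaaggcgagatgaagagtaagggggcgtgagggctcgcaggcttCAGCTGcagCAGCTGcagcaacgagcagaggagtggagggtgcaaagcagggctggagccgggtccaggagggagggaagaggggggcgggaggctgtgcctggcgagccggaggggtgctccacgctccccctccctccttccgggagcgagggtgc
Pdgfra: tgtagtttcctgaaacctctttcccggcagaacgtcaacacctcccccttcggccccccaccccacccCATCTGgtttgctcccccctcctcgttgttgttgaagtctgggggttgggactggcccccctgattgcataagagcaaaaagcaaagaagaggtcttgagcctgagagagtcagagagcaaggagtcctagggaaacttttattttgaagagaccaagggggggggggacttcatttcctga
The Lhfpl3 window held 2 E-boxes, both CAGCTG, which began 158 and 149 bases before the start. The Pdgfra window held 1 (CATCTG, 182 bases before the start) and the Ptprz1 window held 0. The SOX cores ACAAAG and ACAATG, searched on both strands, were in 0 of the 5 member windows. Of 32851 RefSeq promoters of the same length, 66.2% held an E-box, 16.5% ACAAAG and 10.7% ACAATG, so the matches are a description of these windows only. GC content was 71.6% for Ptprz1, 67.2% for Lhfpl3 and 54.4% for Pdgfra.

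The 6 genes did not move as 1 group. Ptprz1 and Lhfpl3 rose from P18 to 24 months, by 2.19-fold and 1.43-fold. Pdgfra was higher at 6 months than at P18 and P75, C1ql1 dipped at P75, and Cspg4 and Vcan passed the test between no pair of ages. The plot of the 12 values of each gene shows these patterns side by side. Tests are limma on log2(normalized read count + 1), called at an adjusted p under 0.1, and log2 changes below are later minus earlier age.

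**Figure D1:**
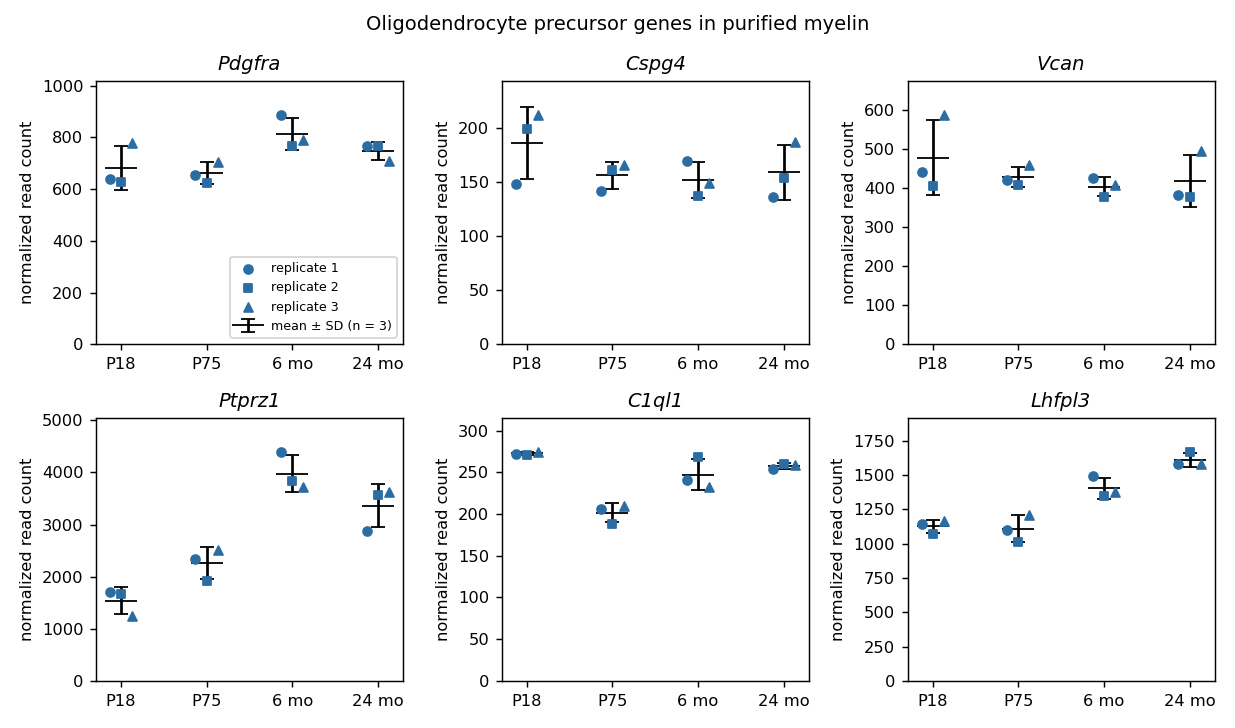
Normalized read count (vertical axes, linear and from 0) of each gene in the 12 libraries by age, with symbols for replicates and bars for the mean ± SD (n = 3). Ptprz1 climbs from a mean of 1539 at P18 to 3979 at 6 months, while Cspg4 stays between 137 and 212 in every library.

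Pdgfra encodes the receptor for platelet-derived growth factor A and is the usual marker of the precursor stage. Its normalized read counts were 638, 629 and 779 at P18 (682 ± 84.2, SD, n = 3), 655, 623 and 706 at P75 (662 ± 42.0), 886, 767 and 790 at 6 months (814 ± 62.9), and 769, 767 and 708 at 24 months (748 ± 34.4). All libraries of 6 months lay above all of P75, whereas P18 overlapped both of these ages. Pdgfra rose by 0.30 on the log2 scale from P75 to 6 months (SE 0.10, 1.23-fold, limma adjusted p = 0.0174) and by 0.26 from P18 to 6 months (adjusted p = 0.0296). From P18 to P75 the difference was -0.04 (adjusted p = 0.776), and it was 0.09 when libraries were scaled to the same total. From 6 to 24 months it was -0.12 (adjusted p = 0.404). From P18 to 24 months it was 0.14 (adjusted p = 0.231), but without P18 replicate 3 it was 0.24 and passed the test (adjusted p = 0.0338).

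Of the genes of the PDGF ligands and of the second receptor, 3 of 5 genes rose and 0 fell from P18 to 24 months, where 69.0% of all tested genes were called, 34.7% as rises and 34.3% as falls, with a median change of -0.01. The counts of the other gene lists below cover the same span unless another is named, and over that span stand against the same shares. Pdgfa, the ligand of Pdgfra made by neurons and astrocytes, went from a mean of 333 at P18 to 286 at P75, 482 at 6 months and finally 446 at 24 months. Its rise from P75 to 6 months was 0.75 (log2, adjusted p = 7.7e-06), in the same interval as the rise of its receptor. Pdgfrb, the second receptor and a pericyte gene, had means of 135 at P18 and 236 to 249 later. Pdgfd, at means of only 19.2 to 71.7, rose by 1.90 in that interval (adjusted p = 2.5e-05). The means of Pdgfb were 231 to 287 and those of Pdgfc 208 to 232, and from P18 to 24 months their differences were -0.06 and 0.14 (adjusted p = 0.73 and 0.35). Of 23 tested genes of the signalling chain below the receptor, 4 rose and 15 fell over the same span (median log2 -0.35). With libraries scaled to the same total, 4 rose and 11 fell (median -0.28). The phosphatase Ptpn11 rose by 1.13 and the kinase Fyn, which also acts in myelin formation, fell by 1.34.

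Cspg4 encodes the NG2 proteoglycan of the precursor membrane. Its normalized read counts were 149, 199 and 212 at P18 (186 ± 33.5, SD, n = 3), 142, 161 and 166 at P75 (156 ± 12.5), 170, 138 and 149 at 6 months (152 ± 16.3), and 137, 154 and 187 at 24 months (159 ± 25.6). Every pair of ages overlapped. The change from P18 to 24 months was -0.22 on the log2 scale (95% interval -0.55 to 0.10, adjusted p = 0.215), so at this depth and n a fall within that interval could not be told from no change. The spread was widest at these ages, and the change passed the test without P18 replicate 1 (log2 -0.38, adjusted p = 0.0435) and without 24 months replicate 3 (log2 -0.35, adjusted p = 0.0799). It shrank to -0.12 without P18 replicate 3 (adjusted p = 0.523) and to -0.12 without 24 months replicate 1 (adjusted p = 0.55). From P18 to P75 the change was -0.24 (adjusted p = 0.229), and -0.14 without P18 replicate 3.

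Vcan encodes versican, a secreted proteoglycan that binds hyaluronan in the matrix around precursors. Its normalized read counts were 441, 406 and 586 at P18 (477 ± 95.4, SD, n = 3), 421, 408 and 458 at P75 (429 ± 25.8), 426, 376 and 408 at 6 months (403 ± 25.0), and 381, 377 and 494 at 24 months (418 ± 66.4). Replicate 3 was the highest at P18, P75 and 24 months, and the ages overlapped. From P18 to 24 months the change was -0.19 (adjusted p = 0.235). It was -0.31 without 24 months replicate 3 (adjusted p = 0.0595), -0.29 without P18 replicate 2 (adjusted p = 0.0851) and -0.03 without P18 replicate 3. From P18 to P75 it was -0.14 (adjusted p = 0.434) and 0.02 without P18 replicate 3.

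Versican belongs to the lecticans, which are held in the matrix by hyaluronan and link proteins. Among 11 other tested genes of this matrix, 8 rose and 2 fell from P18 to 24 months (median log2 0.80). Hapln4, a link protein of the nets around neurons, rose by 1.80 on the log2 scale, from a mean of 572 to 1989. Acan (aggrecan) rose by 1.38, from 48.3 to 129. Ncan (neurocan) fell by 0.30 and Tnc (tenascin C) by 0.48, but neither passed the test when libraries were scaled to the same total. Of 17 tested enzymes that build and sulfate chondroitin chains, which all 3 proteoglycans among the 6 genes can carry, 14 rose and 1 fell over the same span (median log2 0.93). The polymerase genes Chsy3 and Chpf rose by 1.79 and 1.40, and the 6-O-sulfotransferase gene Chst3 fell by 1.36, from a mean of 95.2 to 35.9. Of 7 proteases that cut lecticans, 3 rose, among them Adamts1 by 1.31, and 2 fell (median 0.37).

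Ptprz1 encodes a receptor tyrosine phosphatase whose extracellular part is itself a chondroitin sulfate proteoglycan. Its normalized read counts were 1706, 1670 and 1240 at P18 (1539 ± 259, SD, n = 3), 2349, 1917 and 2505 at P75 (2257 ± 304), 4392, 3833 and 3712 at 6 months (3979 ± 363), and 2883, 3565 and 3625 at 24 months (3357 ± 412). Each library of P75 lay above each of P18, each of 6 months above each of P75, and each of 24 months below each of 6 months. Ptprz1 rose by 0.56 on the log2 scale from P18 to P75 (SE 0.13, adjusted p = 0.0031; 0.41 without P18 replicate 3, adjusted p = 0.0096) and by 0.82 from P75 to 6 months (adjusted p = 8.56e-05, 1.77-fold). The later difference of -0.25 was not past the test (adjusted p = 0.193). From P18 to 24 months the rise was 1.13 (adjusted p = 1.58e-06), with a 95% interval of 1.81-fold to 2.66-fold. It was 0.98 to 1.24 on the log2 scale with any 1 library of these ages left out, the lower value without P18 replicate 3.

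Of 8 genes for ligands, partners and the nearest paralogue (Ptprg) of Ptprz1, 6 rose from P18 to 24 months and 0 fell (median log2 0.67). Of all tested genes, 69.0% were called over this span. Ptn (pleiotrophin), a ligand that inactivates the phosphatase, had a mean of 4139 at P18, 3817 at P75, 7158 at 6 months and finally 6821 at 24 months. Its rise fell in the interval from P75 to 6 months (log2 0.91, adjusted p = 5.6e-06). Ptprz1 rose by 0.82 in that interval and by 0.56 in the interval before, and the difference between its rises was not tested. Mdk (midkine), the related ligand, instead rose by 0.85 from P18 to P75 and fell by 0.56 from P75 to 6 months. The adhesion molecules Cntn1 and Nrcam rose by 1.14 and 1.51 across the lifespan.

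C1ql1 encodes a secreted C1q-like protein, a ligand of the adhesion receptor Bai3. Its normalized read counts were 272, 271 and 274 at P18 (273 ± 1.55, SD, n = 3), 206, 188 and 210 at P75 (202 ± 11.7), 241, 268 and 233 at 6 months (247 ± 18.5), and 254, 259 and 259 at 24 months (257 ± 3.31). P75 lay below every other library. C1ql1 fell by 0.43 on the log2 scale from P18 to P75 (SE 0.10, adjusted p = 0.00216) and rose by 0.29 from P75 to 6 months (adjusted p = 0.0191). With libraries scaled to the same total the fall was 0.31 (adjusted p = 0.0519). At 24 months the libraries lay just below those of P18, with no overlap, but the difference of -0.08 was not past the test (adjusted p = 0.485).

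Of the 3 C1q-like relatives and the receptor Bai3, all 4 rose from P75 to 6 months (median log2 0.89), as C1ql1 did. Of all tested genes, 60.6% were called in that interval, 31.2% as rises. None of the 4 was called from 6 to 24 months, where 29.3% of all tested genes were called. From P18 to P75, when C1ql1 fell, 3 rose and 0 fell, where 48.8% of all tested genes were called, 25.9% as rises. C1ql3 rose by 2.34 from P18 to 24 months, from a mean of 117 to 597, and C1ql2 by 0.96. Bai3 rose by 1.55, from 762 to 2218. C1ql4 was near the filter, at means of 4.99 to 16.8, and did not pass the test from P18 to 24 months (log2 0.72, adjusted p = 0.23), so 3 of the 4 genes rose over the lifespan and 0 fell (median 1.25). The difference between these genes and C1ql1 was not tested.

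Lhfpl3 encodes a tetraspan membrane protein of the LHFPL family. Its normalized read counts were 1143, 1070 and 1164 at P18 (1126 ± 49.4, SD, n = 3), 1100, 1013 and 1210 at P75 (1108 ± 98.8), 1492, 1344 and 1377 at 6 months (1404 ± 77.6), and 1581, 1667 and 1581 at 24 months (1610 ± 49.8). The early pair of ages overlapped, and each of the later ages lay above all libraries before it. Lhfpl3 rose by 0.34 on the log2 scale from P75 to 6 months (SE 0.08, adjusted p = 0.00254) and by 0.52 from P18 to 24 months (adjusted p = 4.98e-05). From P18 to P75 the difference was -0.03 (adjusted p = 0.828), and 0.10 when libraries were scaled to the same total. From 6 to 24 months the difference of 0.20 was not past the test (adjusted p = 0.102), and edgeR and DESeq2 on the recovered reads called it a rise. Of 4 tested LHFPL relatives, Lhfpl5, Lhfp and Lhfpl2 rose by 1.59, 0.86 and 0.69 over the lifespan, and Lhfpl4 fell by 0.23, a call that was lost when libraries were scaled to the same total.

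Counted together, 2 of the 6 genes were called from P18 to P75 (Ptprz1 higher, C1ql1 lower), where 48.8% of all 14634 tested genes were called, 25.9% as rises and 22.9% as falls. From P75 to 6 months 4 rose (Pdgfra, Ptprz1, C1ql1 and Lhfpl3) and 0 fell, where 60.6% were called, 31.2% as rises and 29.4% as falls. From 6 to 24 months limma called 0 of 6, where 29.3% were called, 16.6% as rises and 12.7% as falls. At an unadjusted p under 0.05 it was 1 (Lhfpl3), and edgeR and DESeq2 each called 1. From P18 to 24 months 2 rose and 0 fell, where 69.0% were called, 34.7% as rises and 34.3% as falls. Quantile normalization, which moved the median of all genes to -0.112, called C1ql1, Cspg4 and Vcan as falls as well. Between the ages that do not follow each other, 3 rose and 0 fell from P18 to 6 months, where 69.3% were called, 35.1% as rises and 34.1% as falls. Also 3 rose and 0 fell from P75 to 24 months, where 54.9% were called, 28.8% as rises and 26.1% as falls. The replicates of the ages compared did not overlap for 2, 4, 2, 3, 3 and 4 of the 6 genes in these comparisons in turn, against 47.7%, 63.1%, 43.5%, 66.6%, 67.0% and 57.5% of all tested genes. The plot of changes with their intervals sets the genes beside each other.

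**Figure D2:**
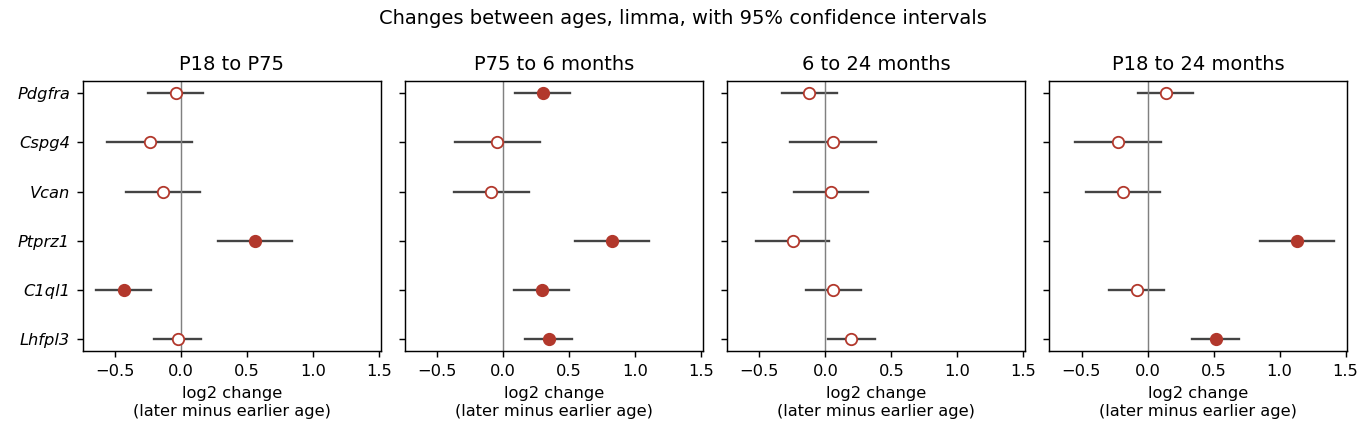
Log2 change of each gene (horizontal axes, later minus earlier age) with its 95% confidence interval from limma, in 4 comparisons, with filled points for an adjusted p under 0.1. Ptprz1 stands furthest to the right, at 1.13 from P18 to 24 months, and no point is filled from 6 to 24 months.

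Of the 6 genes, 5 varied less with age than the median tested gene. The range of the 4 age means was 0.23 on the log2 scale for Vcan, 0.28 for Cspg4, 0.30 for Pdgfra, 0.43 for C1ql1 and 0.54 for Lhfpl3, below the median of 0.67 for all tested genes. The range of Ptprz1 was 1.38, larger than in 87.6% of them. The median absolute change from P18 to 24 months was 0.204 over the 6 genes and 0.456 over all genes. The signed medians over this span were 0.03 and -0.01. From P75 to 6 months, where all 4 called members rose, they were 0.30 and 0.01.

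Levels between genes were compared per kilobase of merged exons, leaving out Lhfpl3, whose model holds no untranslated bases. At P18 Ptprz1 (191 normalized reads per kb) and C1ql1 (185) stood highest, followed by Pdgfra (101), Vcan (33.0) and Cspg4 (23.2). At 6 months Ptprz1 was at 493, and C1ql1, Pdgfra, Vcan and Cspg4 at 168, 121, 27.9 and 18.9, so the order of these genes was kept. Among the 14411 genes with a length that passed the filter on low values, the level of Ptprz1 was above 62.8% at P18 and 82.0% at 6 months. The level of Pdgfra was above 47.6% and 50.3%, in the middle of these filtered genes at both ages. Genes below the filter were not ranked. The level of Cspg4 was above 21.2% and 17.3%.

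A ratio of counts within a library does not depend on how libraries are scaled, so the members were also set against Pdgfra within each library. This was chosen after seeing the data, with exact permutation tests over the ages for 8 ratios and adjustment over them. All 8 share Pdgfra, so the tests are not independent and a change of Pdgfra moves every ratio. The Ptprz1 count was 2.31 times that of Pdgfra at P18, 3.4 at P75, 4.89 at 6 months and finally 4.51 at 24 months (exact permutation p = 0.00039, adjusted 0.00312). Lhfpl3 was 1.66, 1.67 and 1.73 times Pdgfra at the first 3 ages and 2.15 times at 24 months (exact permutation p = 0.0137, adjusted 0.0274). All 24 months libraries (2.06 to 2.23) lay above the other 9, of which the highest was 1.79.

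C1ql1 was 0.403 of Pdgfra at P18, 0.305 at P75 and at 6 months, and 0.345 at 24 months (exact permutation p = 0.0176, adjusted 0.0282). Vcan was 0.696, 0.648, 0.496 and 0.562 of Pdgfra in the same order (exact permutation p = 0.0333, adjusted 0.0444). Vcan itself passed the test between no pair of ages, whereas Pdgfra rose from P75 to 6 months (log2 0.30, limma adjusted p = 0.0174). For C1ql1 and Vcan the p went up to 0.0542 and 0.0811 when 1 library was left out, whereas for Ptprz1 and Lhfpl3 it stayed at or below 0.0024 and 0.0162. Cspg4 was 0.274, 0.237, 0.187 and 0.214 of Pdgfra (exact permutation p = 0.0528, adjusted 0.0603). The ranges of 6 and 24 months overlapped for the ratios of Ptprz1, C1ql1, Vcan and Cspg4, so these ages were not ordered.

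Genes of later stages were set against Pdgfra in the same way. Gpr17, a receptor of the newly formed stage, was 2.12 times Pdgfra at P18, 0.432 at P75, 0.545 at 6 months and finally 0.306 at 24 months (exact permutation p = 0.000844, adjusted 0.00338). Mog, a protein of the outer myelin surface, was 10.8 times Pdgfra at P18 and 4.95, 4.73 and 4.22 times at the later ages (exact permutation p = 0.00292, adjusted 0.00779). Enpp6, of the newly formed stage, was 0.265, 0.142, 0.229 and 0.169 of Pdgfra (exact permutation p = 0.0636, adjusted 0.0636). In P18 replicate 3, Gpr17 was 1.49 times and Mog 6.87 times Pdgfra, the lowest of the P18 libraries but above every later one.

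**Figure D3:**
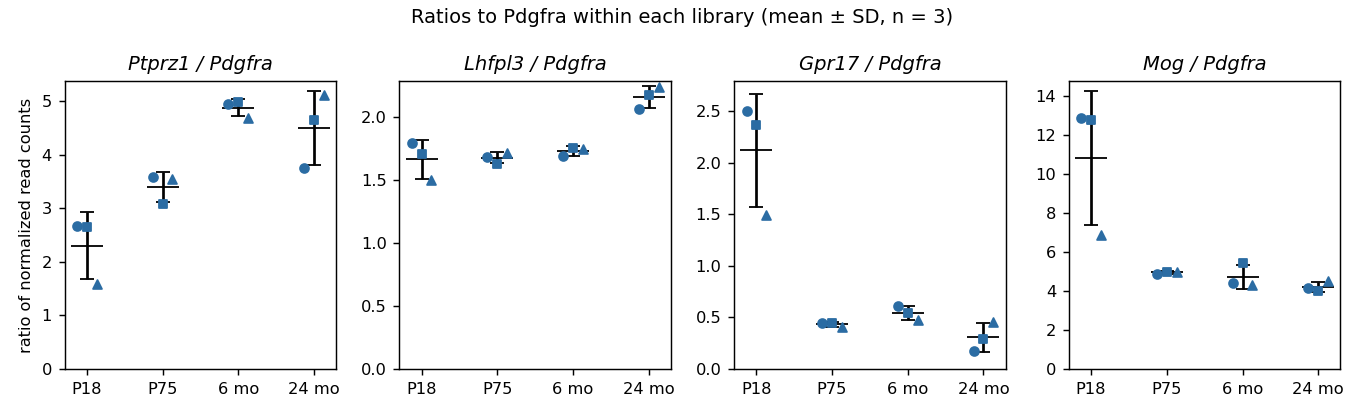
Ratio of the normalized read count of Ptprz1, Lhfpl3, Gpr17 and Mog to that of Pdgfra in each library by age (linear axes from 0), with circles, squares and triangles for replicates 1, 2 and 3 and bars for the mean ± SD (n = 3). Ptprz1 rises from 2.31 to 4.89 by 6 months and Lhfpl3 steps up to 2.15 at 24 months, while Gpr17 and Mog are highest at P18.

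Of 22 other tested genes known for expression in precursors, 9 rose and 9 fell from P18 to 24 months, with a median change of 0.21. The largest rises were Nxph1 (log2 2.09), a neurexin ligand, and Xylt1 (1.14), which starts chondroitin chains. The largest falls were Traf4 (-1.97) and Neu4 (-1.87), a sialidase.

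The lists of newly formed oligodendrocytes, lineage transcription factors and dividing cells leaned to falls. Of 12 tested genes of newly formed oligodendrocytes, 10 fell and 1 rose (median -1.41). Gpr17 went from a mean of 1414 to 226, and Kif19a fell by 3.21 and 9630013A20Rik by 6.86, while Tmem108 rose by 0.35. Of 16 transcription factors of the lineage, 12 fell and 0 rose, and Olig1 fell by 2.16 from a mean of 10854. Of 11 tested genes of dividing cells, 9 fell and 1 rose, or 7 and 1 with libraries scaled to the same total. Mki67, present in cycling cells, went from 87.9 at P18 to 11.2 at 24 months. The list of myelinating oligodendrocytes was more mixed, and of its 15 genes 4 rose and 8 fell (median -0.28).

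**Figure D4:**
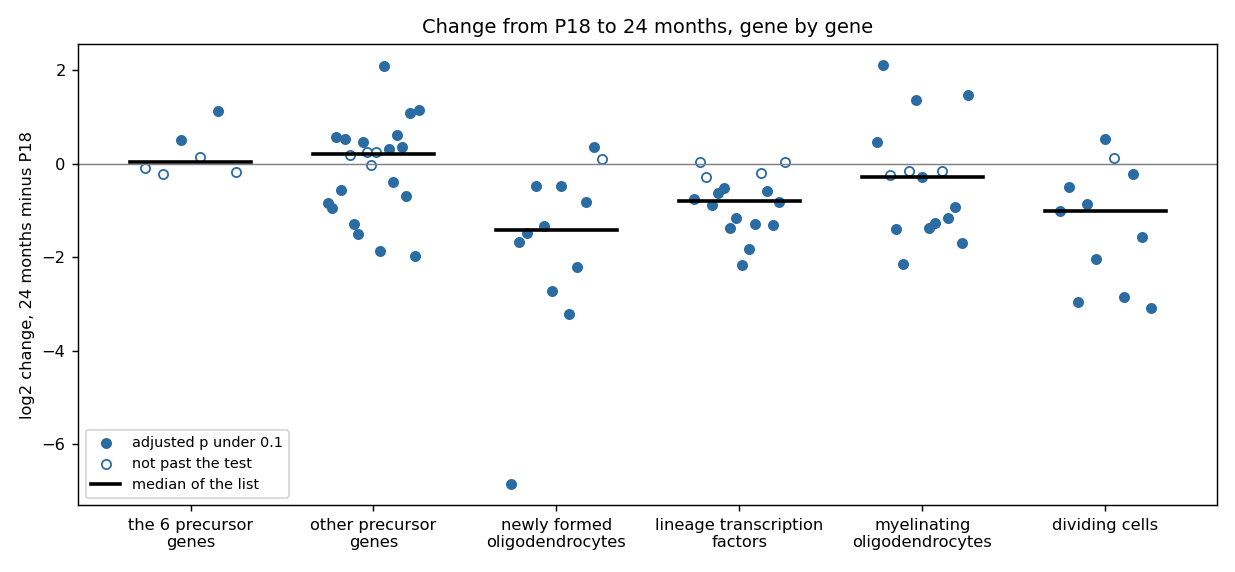
Log2 change from P18 to 24 months (vertical axis) of each tested gene, by list, with filled points for a limma adjusted p under 0.1 and a bar for the median of the list. The 6 precursor genes lie between -0.22 and 1.13 with a median of 0.03, and the medians of newly formed oligodendrocytes and dividing cells lie at -1.41 and -1.01.

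Marker genes of other cells moved with age as well. No gene of these lists was at 0 in every library. Of 13 pericyte and mural cell genes, 5 rose and 2 fell from P18 to 24 months, and their summed normalized read count was 967 to 1013 at P18 and 1568 to 1948 at 24 months. Cspg4 was not called over this span. Of 10 fibroblast genes, 7 rose and 1 fell, with sums of 2123 to 2359 at P18 and 4937 to 5603 at 24 months, over which neither Vcan nor Pdgfra was called. Of 12 astrocyte genes, 6 rose and 4 fell, and their sums overlapped, at 107488 to 129125 for P18 and 109927 to 119154 for 24 months. The median change of that list was 0.15. Of 12 microglial genes 11 rose, with sums of 7789 to 8994 at P18 and 21314 to 26607 at 24 months. Of 12 neuronal genes, 5 rose and 5 fell, and of 10 endothelial genes, 5 rose and 2 fell, or 3 and 3 with quantile normalization. From P75 to 6 months, where 4 members rose and 60.6% of all tested genes were called, 8 neuronal genes rose and 3 fell (median 0.37), and their sums were 211136 to 240778 and 196978 to 203503. In that interval 4 fibroblast genes rose and 0 fell (median 0.42), 6 microglial genes rose and 2 fell (0.28), 4 pericyte genes rose and 1 fell (0.05), 3 astrocyte genes rose and 2 fell (0.05), and 3 endothelial genes rose and 3 fell (-0.05). The part of these cells in the counts of the members was not tested.

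Over the 12 libraries, the members that followed each other most closely were Lhfpl3 and Ptprz1 (Pearson r = 0.77), Cspg4 and Vcan (0.73) and Pdgfra and Lhfpl3 (0.71). Cspg4 and Vcan ran against Ptprz1 (-0.46 and -0.50). Over 15 pairs these are descriptions, since the points share libraries, depth and ages. Among 11305 genes with a mean over 100, those most like the mean of the 6 members were Islr2 (0.89), Clvs2 (0.89) and Sema4c (0.85), followed by Cav1, Sesn1, Slc6a4, B3gat2, Cxcl12, Nxph3 and Lyn. Ptprz1 was most like Sema6d (r = 0.996), Megf10 and Zfp110 (both 0.99). Lhfpl3 was most like Hnmt, Elovl4 and Slco2b1 (0.96 to 0.97), Pdgfra like Iqgap2, Pnma3 and Cacnb2 (0.92), and C1ql1 like Acsf2, Sparc and Zgpat (0.88 to 0.90). Cspg4 was most like Chac1, Zfp668 and Trappc5 (0.81 to 0.85) and Vcan like Trappc5, Gadd45b and Zfp846 (0.83 to 0.85). The highest of 11305 correlations over 12 libraries can be large through the search alone. The named genes are therefore also a description, and no link to the members was tested.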

How the data were processed

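RNA of purified mouse brain myelin was sequenced in 3 libraries at each of 4 ages, and libraries were grouped by the age in their labels. The authors aligned the reads to mm9 (TopHat2 2.0.8 in the submitters' processing notes, with SAMtools 0.1.19), counted them on genes with HTSeq 0.5.4p1 and normalized them with the size factors of DESeq. These normalized read counts are the deposited signal, linear and with no correction for length. Of 21937 genes, 3103 were at 0 in every library. Dividing by the value of 1 read gave whole reads (within 0.05 read) for 100% of values under 1000 reads, and so the depth.

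Ages were compared with limma 3.58.1 (trend, empirical Bayes, R 4.3.3) on log2(normalized read count + 1) with all 12 libraries in 1 model and age as its only term. The 14634 genes whose mean reached 10 were tested. A change on this scale understates that of low genes. Calls used a Benjamini-Hochberg false discovery rate of 0.1 over all tested genes. The authors tested counts with DESeq, but normalized values need a log scale test, so edgeR 4.0.16 and DESeq2 1.42.0 on the recovered reads were alternatives. Others were pseudocounts of 0.5 and 10, a mean over 100, no filter, other scalings, only the ages compared, a replicate block and each library left out. The methods were tested on simulated data with changes larger than those of the members, so that test does not cover changes of their size. An exact permutation test of 3 against 3 libraries cannot go below p = 0.1, and that over 4 ages not below 6.49e-05. Samples with the same replicate number come from different mice. Deviations of same-numbered libraries from their age means correlated over genes at 0.161, 0.101 and 0.187 between P75 and 6 months. Between P18 and P75 they correlated at -0.151 to -0.026. The labels name no pairing, and these values do not establish one. P-values measure the spread between libraries from mice of 1 strain.

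The 6 genes and the gene lists were chosen with earlier results of these data known. From each list the text names up to 2 genes that rose and 2 that fell most, all genes of the PDGF, C1q-like, LHFPL and Ptprz1 partner lists where needed, and the genes most like each member. Other named genes were chosen after their values were seen. Fyn, Ust, Tnr, Xylt1, Tcf7l2, Hapln2 and Pdgfrb stand in more than 1 list. Lengths came from GENCODE vM1 on NCBIM37 and were found for 98.5% of tested genes. Hras was not analysed here.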

Additional observations from a re-analysis of the deposited data

How the results depend on the processing

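The 8 calls among the 24 changes of the 6 genes in the main 4 comparisons kept their direction and their call under all 12 alternatives and with each of the 6 libraries of the ages compared left out in turn. Of 432 such values, 404 kept direction and call, 16 passed the test only under the alternative and 12 turned direction, none of them a called change. From 6 to 24 months the count of 0 called genes became 1 with a pseudocount of 10, with a mean over 100, with quantile normalization and by edgeR and DESeq2 on the recovered reads (Lhfpl3 each time), and 2 when only the libraries of these ages were used (Lhfpl3 higher, Ptprz1 lower). From P18 to 24 months quantile normalization, which moved the median of all genes to -0.112, called 5 (2 rises and 3 falls) in place of 2. Leaving out 1 library gave 2 to 4 calls from P18 to 24 months, with 4 (2 rises and 2 falls, Cspg4 and Vcan) without 24 months replicate 3. It gave 2 to 3 calls between P18 and P75, always 4 between P75 and 6 months, and always 0 after 6 months. The third call from P18 to P75 was Cspg4 without P18 replicate 1 (log2 -0.39, adjusted p = 0.0561).

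Scaling to the same total, which moved the median of all genes from P18 to P75 to 0.139, turned Pdgfra to 0.0859 and Lhfpl3 to 0.0995, and quantile normalization turned Cspg4 from 6 to 24 months to -0.0083. With 1 library left out, the change from P18 to P75 was -0.0939 to 0.0601 for Pdgfra, -0.246 to 0.0185 for Vcan and -0.0913 to 0.0368 for Lhfpl3. For Cspg4 it was -0.125 to 0.0260 from P75 to 6 months and -0.0642 to 0.160 from 6 to 24 months, and for Vcan -0.0861 to 0.108 from 6 to 24 months. The cause of these turns was not tested. The fit with a replicate block, which pairs same-numbered libraries, called 2, 4, 0 and 2 genes in the 4 comparisons and changed no call. Apart from P75 with 6 months, deviations of same-numbered libraries correlated at -0.213 to 0.029 between consecutive ages and between P18 and 24 months. With 3 libraries per age and 125 to 211 reads of Cspg4 per library, small changes of this gene could not be resolved.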
